A study of Homo sapiens with 9 samples.

Results

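LIN28B binding was compared between HEK293 and K562 cells by antibody-barcode eCLIP (ABC), in which an antibody carrying a DNA barcode ligates that barcode to the RNA fragments crosslinked to its RNA-binding protein (RBP). In 10plex ABC, 10 such antibodies share 1 lysate and the reads are separated by barcode afterwards. The LIN28B libraries of the 10plex pools were used, 2 from HEK293 cells and 3 from K562 cells, which makes 5 of the 54 libraries of the series, and the 45 libraries of the other 9 RBPs in the same pools (RBFOX2, PUM2, DDX3, FAM120A, ZC3H11A, SF3B4, EIF3G, PRPF8 and IGF2BP2) served as a control for expression. HEK293 stands here for the line that the titles give as HEK293T (the study's culture methods have HEK293XT), an established line derived from embryonic kidney cells, and K562 an established line from a chronic myelogenous leukaemia with erythroid features. The labels give no treatment apart from UV crosslinking, and each was a single line, so that the comparison is of these lines and not of tissues. The titles and source names placed the HEK293 pools, whereas their cell line field reads K562. The marker genes followed the titles. All 14 K562 markers, among them the globin genes HBG1 and HBG2 and the erythroid factor GATA1, held reads of the 10 RBPs in each K562 pool (1488 to 1883 RPM, reads per 1000000 peak reads), and 0 or 1 of the 14 did in the HEK293 pools. Of 9 HEK293 markers, 8 and 9 held reads in the HEK293 pools and 3 in each K562 pool.

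LIN28B is an oncofetal RBP with a cold shock domain and a pair of zinc knuckles. It is best known for binding the terminal loop of let-7 precursors, which blocks their maturation and recruits enzymes that add uridines to them, and the zinc knuckles recognise GGAG near the end of the loop. The cold shock domain binds the loop further upstream, and loops with a GAU there have been described as a subclass of stronger LIN28 targets. LIN28 proteins also bind many mRNAs, mostly in exons, among them mRNAs for ribosomal proteins, splicing factors and metabolic enzymes. Both lines express LIN28B.

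The LIN28B libraries held 200000 and 226177 reads in merged peaks in HEK293 cells and 116686, 194335 and 120748 in K562 cells. Peaks counted as enriched had P under 0.001 and exceeded an external background library, for which the study's methods name RNA-seq data of each line, more than 8-fold. This gave 9566 and 9649 enriched peaks in HEK293 cells and 5724, 7910 and 6455 in K562 cells. The external backgrounds of the lines were not alike. At the merged LIN28B peaks they held a median of 102 and 98 reads in HEK293 cells and of 1 read in each K562 library, so that an enriched peak could have as few as 3 reads in HEK293 cells and needed at least 5, 6 and 5 in K562 cells. Results are therefore also given over the complement control (CC), for which the reads of all 9 other antibodies in a pool are added up, with the same limits on P and fold, and a peak with no CC value counts as not enriched. Over the CC, 5197 and 3188 LIN28B peaks were enriched in HEK293 cells and 3595, 5588 and 4280 in K562 cells. Nothing in the labels says that replicates came from separate cultures, and p-values measure the spread between these libraries only.

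Among the hairpins bound in all libraries of a line, MIRLET7D and MIRLET7F1 had the most LIN28B reads in each of the 5 libraries. Of the 12 let-7 hairpins, the same 6 had an enriched peak in all 5 libraries: MIRLET7B, MIRLET7D, MIRLET7F1, MIRLET7G, MIRLET7I and MIR98. Their mature 5p sequences from RefSeq (GRCh38.p14) are shown to make plain that they are 1 family, with the seed, bases 2 to 8, in capitals. All 12 let-7 hairpins share the seed GAGGUAG.

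hsa-let-7b-5p: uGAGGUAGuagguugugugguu
hsa-let-7d-5p: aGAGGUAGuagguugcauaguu
hsa-let-7f-5p: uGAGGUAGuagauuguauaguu
hsa-let-7g-5p: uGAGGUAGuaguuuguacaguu
hsa-let-7i-5p: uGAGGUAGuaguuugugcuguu
hsa-miR-98-5p: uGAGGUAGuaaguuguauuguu

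The hairpins differ in the loop between the mature arms, where LIN28 proteins bind. The last 30 bases of the loop, up to the 3p arm, are shown for the 6 bound hairpins, with GGAG and UGAU in capitals.

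MIRLET7B: agggcagUGAUguugccccucggaagauaa
MIRLET7D: agggcagggauuuugcccacaaGGAGguaa
MIRLET7F1: gguagUGAUuuuacccuguucaGGAGauaa
MIRLET7G: gucuaUGAUaccacccgguacaGGAGauaa
MIRLET7I: ggguugugacauugcccgcuguGGAGauaa
MIR98: uagggauauuaggccccaauuagaagauaa

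The loops of 3 hairpins that were not bound in all libraries of a line are shown whole for comparison. They are the shortest, with 23 bases each, where the whole loops of the bound hairpins have 32 to 36. The loops of MIRLET7A1 and MIRLET7A3, also not bound, are not shown and have 29 and 26 bases.

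MIRLET7A2: uagaauuacaucaagGGAGauaa
MIRLET7C: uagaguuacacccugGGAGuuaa
MIRLET7E: gaGGAGgacacccaaGGAGauca

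GGAG stood in bound and in other let-7 hairpins. It was found in the loop of 4 of the 6 bound hairpins and of 4 of the 5 others whose loop could be delimited from both mature arms, against 8.12% of the loops of 739 hairpins. GAU before the last 10 bases of the loop was found in 5 of the 6 bound hairpins and in 0 of the 5 others, against 7.31% of the 739 loops; the bound hairpin without it was MIRLET7I. This motif was looked for after the bound hairpins were known, and the count is a description. UGAU, searched in whole hairpins, was present in 3 of 6 bound hairpins and 0 of 6 others, against 25% of 1560 hairpins.

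MIRLET7D (chr9:94178834-94178920, plus strand) and MIRLET7F1 (chr9:94176347-94176433, plus strand), neighbours in 1 cluster, held most of the let-7 reads. MIRLET7D had 281 and 255 LIN28B reads in HEK293 cells and 392, 241 and 425 in K562 cells. MIRLET7F1 had 263 and 301 reads in HEK293 cells and 254, 263 and 260 in K562 cells. Per depth, MIRLET7D had 1405 and 1127 RPM in HEK293 cells and 3359, 1240 and 3520 in K562 cells, which overlapped. MIRLET7F1 had 1315 and 1331 RPM against 2177, 1353 and 2153, so that every K562 library was above both HEK293 libraries, replicate 2 by little. The leading HEK293 peaks on both hairpins had a −log10 P at its cap of 400. There the reads taken are the smallest that fit and may be too low. The other 9 RBPs together, with many times the depth, had 13, 38, 38, 29 and 20 reads in their peaks on MIRLET7D in the same order of pools.

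The other bound family members were lower by several fold in each library. MIRLET7B (chr22:46113686-46113768) had 63 and 44 reads in HEK293 cells and 36, 31 and 34 in K562 cells, and the other 9 RBPs had no peak on it. MIRLET7G (chr3:52268278-52268361, minus strand) had 48 and 81 reads in HEK293 cells and 34, 23 and 24 in K562 cells. MIRLET7I (chr12:62603686-62603769) had 24 and 37 reads against 36, 33 and 26, and MIR98 (chrX:53556223-53556341, minus strand) had 36 and 67 against 41, 39 and 31. Of the 6 hairpins that were not bound in all libraries of a line, MIRLET7A1, MIRLET7C and MIRLET7F2 held 4 or 5 reads in 1 or 2 libraries, and MIRLET7A2, MIRLET7A3 and MIRLET7E had no LIN28B peak in any library.

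On the leading pair, the LIN28B peak with the most reads covered the end of the loop and part of the 3p arm in all 5 libraries. On MIRLET7D it ran from base 42 to 79 and from base 52 to 72 of the 87-base hairpin in HEK293 cells, and from base 53 to 79, 35 to 82 and 42 to 75 in K562 cells. On MIRLET7F1 the peak of HEK293 replicate 1 and those of K562 replicates 1 and 2 had the same ends, bases 42 to 80.

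**Figure D1:**
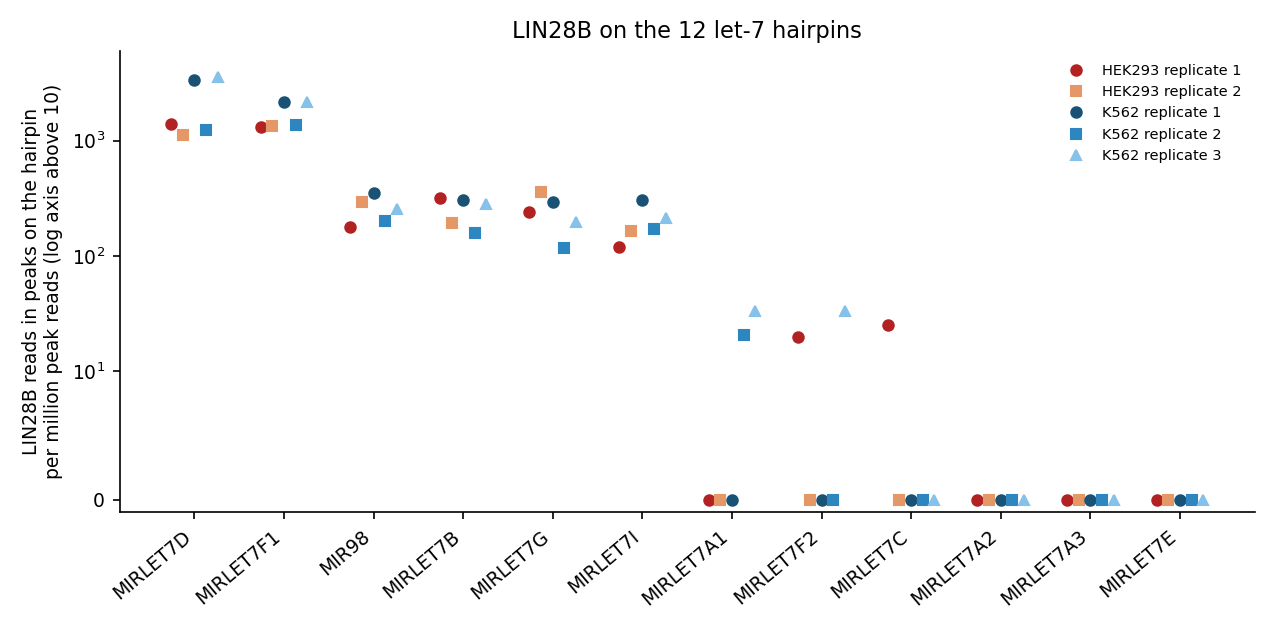
LIN28B reads in peaks on each of the 12 let-7 hairpins, in RPM of the library (vertical axis, logarithmic above 10, with 0 marked), for the 2 HEK293 and 3 K562 libraries. The 6 bound hairpins lie between 118 and 3520 RPM in every library, and the other 6 between 0 and 33.1.

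Summed over the family, the LIN28B level on let-7 hairpins was 3620 and 3471 RPM in HEK293 cells and 6796, 3262 and 6692 in K562 cells. The HEK293 values fell between those of the K562 libraries, and the means, 3545 ± 106 (SD, n = 2) and 5583 ± 2011 (SD, n = 3), did not differ beyond this spread (ratio 0.635, two-sided exact permutation p = 0.4, where the smallest p of 2 libraries against 3 is 0.1). The other 9 RBPs summed had 11.6 and 14.6 RPM on let-7 in HEK293 cells and 26.7, 21.6 and 28.9 in K562 cells. Relative to them, LIN28B was 274 ± 52.3-fold higher in HEK293 cells (n = 2) and 213 ± 54.4-fold higher in K562 cells (n = 3; two-sided exact permutation p = 0.4). Single other RBPs reached at most 531 RPM on let-7, by PUM2 in K562 replicate 2.

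Of 1879 annotated hairpins, 31 (1.65%) had an enriched LIN28B peak in both HEK293 libraries, 16 (0.852%) in all 3 K562 libraries and 13 (0.692%) in all 5, which gives 34 bound hairpins in all. The 7 hairpins outside let-7 that were bound in all 5 libraries were MIR1248, MIR3609, MIR3620, MIR3651, MIR4449, MIR6501 and MIR671. MIR1248 and MIR3651 overlap the small nucleolar RNA genes SNORA81 and SNORA84. Reads of the hairpin and of the small nucleolar RNA cannot be told apart there. MIR3609, MIR3620, MIR6501 and MIR671 overlap the protein-coding genes TRRAP, ARF1, SON and CHPF2, whose reads were not separated from those of the hairpin. On 4 of the 7, MIR1248, MIR3609, MIR3651 and MIR4449, the other 9 RBPs had many times the reads of LIN28B. MIR4449 had 49 to 102 LIN28B reads per library but 683 to 2374 of the other 9. MIR3620, within the gene ARF1, differed from these, with 14 and 17 LIN28B reads in HEK293 cells and 35, 51 and 50 in K562 cells against 0 to 15 reads of the other 9.

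Of the 18 bound in both HEK293 libraries but not in all K562 libraries, 11 had no enriched peak in any K562 library. These were MIR10A, MIR140, MIR15B, MIR222, MIR342, MIR34A, MIR425, MIR484, MIR615, MIR664A (which overlaps the small nucleolar RNA gene SNORA36B) and MIR99A. MIR342 has no CC value in either HEK293 library, and 9 of the others had no peak enriched over the CC in these libraries. MIR615, in the HOXC cluster, was enriched over the CC in both, with 8 and 7 LIN28B reads against 0 and 6 of the other 9. MIR15B, one of the 9, had 22 and 5 LIN28B reads and 1817 and 134 reads of the other 9 in HEK293 cells, against 7, 47 and 115 reads of the other 9 in K562 cells. MIR99A, a miRNA encoded in the same cluster as let-7c, had 28 and 8 LIN28B reads and 410 and 118 of the other 9 in HEK293 cells, and no peak of any of the 10 RBPs in K562 cells. The 3 hairpins bound in all K562 libraries but not both HEK293 libraries were MIR142, MIR652 and MIR19B1. MIR142, a miRNA of blood cells, had 9, 10 and 13 LIN28B reads in K562 cells with 135, 141 and 210 of the other 9, and no peak of any of the 10 RBPs in HEK293 cells. MIR652 had 9, 7 and 12 LIN28B reads in K562 cells with no peak of the other 9 there, and no LIN28B peak but 8 reads of the other 9 in HEK293 replicate 1. MIR19B1 had 9, 13 and 18 LIN28B reads in K562 cells with 13, 14 and 57 of the other 9, and was enriched over the CC in K562 replicates 1 and 2 and in HEK293 replicate 2.

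Over the CC, 10 hairpins (0.532%) were enriched in both HEK293 libraries, the 6 let-7 hairpins with MIR3620, MIR671, MIR4721 and MIR615. MIR4721, which overlaps the gene TUFM, had 3 recovered reads in HEK293 replicate 1 beside a −log10 P at its cap of 400. So few reads cannot give that P, so that they are too low and the CC call there is uncertain. In all 3 K562 libraries 4 (0.213%) were enriched, MIRLET7D, MIRLET7F1, MIRLET7G and MIR98, all of which were also enriched in HEK293 cells. MIRLET7B, MIRLET7I and MIR3620 were enriched over the CC in K562 replicates 1 and 2, and their peaks have no CC value in the list of replicate 3.

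Binding to mRNAs was counted as an enriched LIN28B peak in an exon of a protein-coding gene. In both HEK293 libraries 2201 mRNAs were bound, in all 3 K562 libraries 1565, and in all 5 libraries 789. These are 35.8% of the HEK293 list and 50.4% of the K562 list. Among the 5263 mRNAs on which the other 9 RBPs had at least 30 exonic peak reads in every pool, the shares were 29.7% in HEK293 cells, 26.4% in K562 cells and 13.6% in all 5 libraries.

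Of the 10 mRNAs with the highest mean LIN28B level among the 789, 8 are described here: RPL18, EIF4G1, ETFA, ENO1, CANX, RPS19, HNRNPU and PRPF8. RPL18, a protein of the large ribosomal subunit, stood far above the rest, with 8620 and 14405 LIN28B RPM in HEK293 cells and 16780, 9283 and 11139 in K562 cells. The lines overlapped, and the other 9 RBPs together had 205 to 300 RPM on it, also with overlapping lines. EIF4G1, the scaffold of the cap-binding complex, had 2215 and 1008 RPM in HEK293 cells and 4893, 4513 and 4721 in K562 cells. ETFA, an electron carrier of mitochondrial fatty acid oxidation, had 1820 and 1251 against 4542, 5804 and 3313, while the other 9 RBPs had 62.3 to 91.4 in either line.

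For both EIF4G1 and ETFA every K562 library was above both HEK293 libraries in LIN28B level, and the other 9 RBPs did not share that order. The LIN28B level alone was higher in K562 cells (limma adjusted p = 0.0447 and 0.0457). With the other 9 RBPs subtracted, EIF4G1 differed by -1.87 ± 0.40 (HEK293 minus K562, log2, SE) and ETFA by -1.63 ± 0.42, which did not pass the correction (limma adjusted p = 0.377 and 0.388). The HEK293 levels of all mRNAs given can be too low where a peak had a −log10 P of 0 or at its cap. Such peaks were 8.06% and 8.45% of LIN28B peaks in HEK293 cells and at most 0.274% in K562 cells. Whether they lie on the mRNAs named was not tested.

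ENO1, the glycolytic enolase, had 1300 and 1185 LIN28B RPM in HEK293 cells and 4131, 3340 and 5068 in K562 cells, with the other 9 RBPs also higher in K562 cells (473 against 871 RPM). RPS19, of the small ribosomal subunit, was nearly level, with 1915 and 2140 in HEK293 cells against 2117, 2449 and 1979 in K562 cells. PRPF8, a core spliceosome protein and itself one of the 10 RBPs, had 2370 and 2233 RPM in HEK293 cells against 1680, 1657 and 1217, and carried 3 separate sites bound in all 5 libraries.

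Sites in CDS that were enriched in all 5 libraries are shown for HNRNPU and EIF4G1, to give the sequence that both lines have in common. Each is the stretch, cut to 30 bases, that the peaks of all 5 libraries share, as DNA on the gene's strand from GRCh38, with GGAG in capitals.

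HNRNPU, CDS, chr1:244864078-244864107: tgggcgctcgGGAGcaggcctcgagcagga
EIF4G1, CDS, chr3:184324905-184324934: gagctggaagaggctcgggacatagcccgg

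The HNRNPU site, in an RNA-binding scaffold of the nucleus, had 51 and 54 LIN28B reads in HEK293 cells and 26, 36 and 32 in K562 cells. The EIF4G1 site had 213 and 81 reads against 411, 594 and 356. Per depth, the HNRNPU site had 255 and 239 RPM against 223, 185 and 265, which overlapped, and the EIF4G1 site had 1065 and 358 against 3522, 3057 and 2948, with every K562 library above both HEK293 libraries. Of these stretches, that of HNRNPU held GGAG. Over the CC, HNRNPU was bound in 0 of 2 HEK293 and 2 of 3 K562 libraries, and the other 7 mRNAs described were bound in all 5.

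Of the mRNAs bound in both HEK293 libraries, 1412 were not bound in all K562 libraries, and 818 of these were bound in none. The other 9 RBPs covered 376 of the 818 (46.0%) in K562 cells with at least 30 reads in every pool, so that the rest could not be compared with expression. Of 776 mRNAs bound in all K562 libraries but not in both HEK293 libraries, 494 were bound in no HEK293 library, and 440 of those (89.1%) were covered in HEK293 cells. The lists were smaller over the CC, with 1430 mRNAs in HEK293 cells, 1142 in K562 cells and 721 in all 5, which are 50.4% and 63.1% of the lists. Over the CC, the shares of the 5263 covered mRNAs were 18.1%, 17.9% and 11.6%. There, 285 mRNAs were bound in both HEK293 libraries and no K562 library, and 67 of them were covered in K562 cells. In the other direction 177 were bound in all K562 libraries and no HEK293 library, and 130 of them were covered in HEK293 cells.

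**Figure D2:**
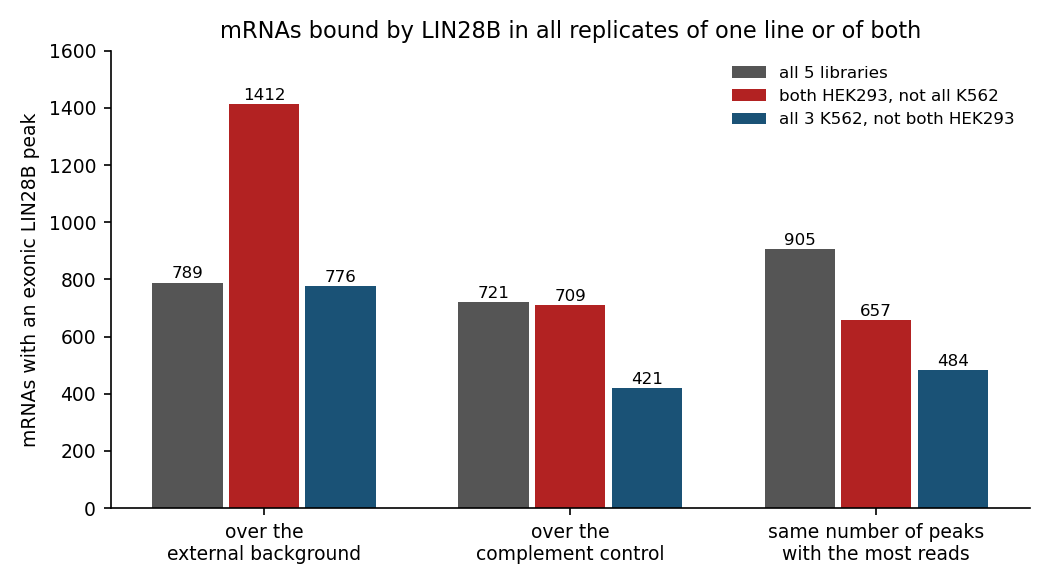
Number of mRNAs with an exonic LIN28B peak (vertical axis) in all 5 libraries, in both HEK293 but not all K562 libraries, and in all K562 but not both HEK293 libraries, by how peaks were selected (horizontal axis). In these 3 selections the count in all 5 libraries lies between 721 and 905, and the other selections of enriched peaks gave 337 (P below 1e-05, fold above 16) to 1007 (any fold above 1). The count of the HEK293 group is 1412 over the external background, 709 over the complement control and 657 with the same number of peaks per library.

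For several highly covered mRNAs, the lines in which they counted as bound depended on the background. RPL8 had 2990 and 1309 LIN28B RPM in HEK293 cells and 1817, 1919 and 2236 in K562 cells, yet its peaks were enriched over the external background in K562 cells only. PKM, the pyruvate kinase gene, had 915 and 632 RPM against 1774, 2506 and 1607 and showed the same split. RPS13 and PFKP, a phosphofructokinase gene, did so too. Over the CC, all 4 were bound in all 5 libraries.

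The region in which the enriched peaks lay differed between lines over the external background. Of the enriched peaks, 37.8% and 37.1% overlapped coding sequence (CDS) in HEK293 cells and 58.2%, 59.5% and 59.4% in K562 cells. Introns held 18.2% and 22.5% against 6.95%, 5.37% and 5.19%, and 3′ UTRs 27.2% and 21.9% against 18.3%, 21.3% and 21.8%. No HEK293 library overlapped the K562 libraries in any of these shares. The difference was -21.6 percentage points for CDS, 14.5 for introns and 4.08 for 3′ UTRs (each two-sided exact permutation p = 0.1, the smallest that 2 libraries against 3 allow). The CDS and intron differences were shared by the other RBPs. All 10 RBPs had a lower CDS share and a higher intron share in HEK293 cells, from -3.79 (PUM2) to -29.9 percentage points (RBFOX2) for CDS, and LIN28B ranked 4 of 10 by size for CDS and 7 of 10 for introns. The 3′ UTR difference was not shared in this way. That of LIN28B was the highest of the 10, next to 1.99 for ZC3H11A, and IGF2BP2 and FAM120A were at -15.8 and -29.4 percentage points.

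The difference in CDS and introns depended on the background. It kept its direction with stricter limits, with the same number of top-ranked peaks and for peaks enriched over both backgrounds (-31.2, -28.8 and -17.5 percentage points for CDS), all of which use the external background. Over the CC the CDS difference kept its sign at -2.04 and the intron difference turned, and by reads both turned. Over the CC, the CDS share of LIN28B peaks was 62.6 ± 1.45% in HEK293 cells (SD, n = 2) and 64.6 ± 4.81% in K562 cells (n = 3; two-sided exact permutation p = 0.5), and introns were lower in HEK293 cells, 6.42 ± 0.42% against 9.69 ± 2.15%. Among the 5724 peaks with the most reads of each library, with no limit on a background, CDS held 59.4% and 59.9% in HEK293 cells and 58.2%, 58.9% and 58.8% in K562 cells, and introns 5.00% and 4.91% against 6.94%, 5.26% and 5.14%. The reads themselves were recovered from the fold and P over the external background, and some may be too low in HEK293 cells. The 3′ UTR share over the CC was 24.9 ± 1.31% in HEK293 cells against 17.7 ± 2.7% in K562 cells, with 24.0% and 25.8% above 17.0%, 15.4% and 20.6% (exact permutation p = 0.2). By reads it was 21.1 ± 1.69% against 20.2 ± 1.76%, a difference of 0.83 points that was again the highest of the 10 RBPs and smaller than the spread between replicates.

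**Figure D3:**
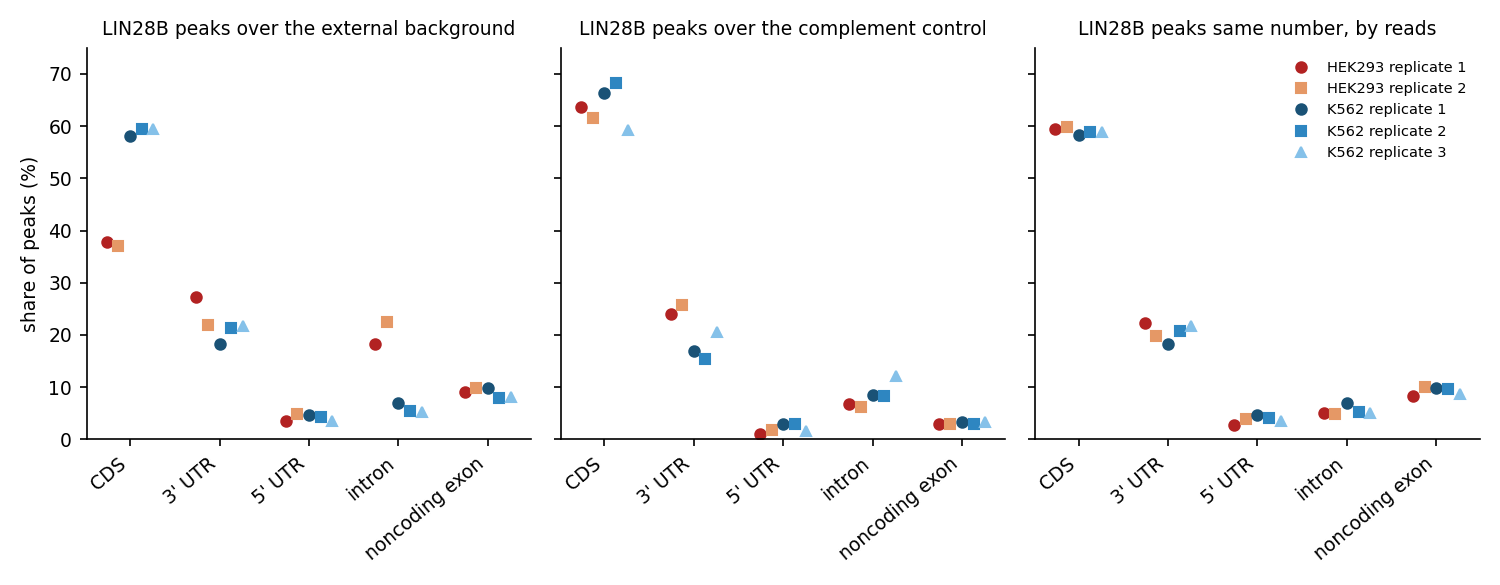
Share of LIN28B peaks (vertical axis, percent) in 5 kinds of region (horizontal axis) for each library, for peaks enriched over the external background (left), over the complement control (middle) and for the 5724 peaks with the most reads (right). The lines stand apart in CDS and introns on the left, where HEK293 has 37.8% and 37.1% CDS, and all lie between 58.2% and 59.9% on the right.

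Single sites were compared next. Over the external background, 20% to 24.7% of the enriched LIN28B peaks of a HEK293 library overlapped one of a K562 library by at least 1 nt, and 27.7% to 34.9% in the other direction, with a mean of 27.0% over both directions of the 6 pairs. The mean was 37.5% between the HEK293 replicates and 58.8% within K562 cells. With the same number of peaks by reads, it was 47.8% between lines, 59.5% between the HEK293 replicates and 60.8% within K562 cells. The other 9 RBPs had means of 28.9% (ZC3H11A) to 54.2% (FAM120A) between lines by reads, and LIN28B lay within their range. Joined into loci, 988 places were enriched in all 5 libraries, 1418 in both HEK293 but no K562 library and 1304 in all K562 but no HEK293 library. CDS made up 40.7%, 40.3% and 75.8% of them. By reads there were 1395, 719 and 536 loci, of which 58.6%, 59.2% and 62.7% were in CDS.

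GGAG and related motifs were counted on the strand of the exonic enriched peaks. GGAG was in 38.2 ± 2.09% of these peaks in HEK293 cells (SD, n = 2) and 43.8 ± 1.85% in K562 cells (n = 3; two-sided exact permutation p = 0.1), against means of 30.4% and 28.9% for the other 9 RBPs. In K562 cells LIN28B had the highest share of the 10 RBPs, and in HEK293 cells it ranked 4, with EIF3G highest at 41.4%. GGAGA, which is also counted under GGAG, was in 14.7 ± 0.81% and 17.6 ± 0.75%, the highest of the 10 RBPs in both lines. AAGNNG was in 31.3 ± 1.38% and 33.8 ± 1.55%, against 24.2% and 23.2% for the other 9. Over the CC the GGAG shares were 40.6 ± 3.73% and 40.5 ± 0.91%, which differed by less than the spread between replicates. In windows of 51 nt around the centre of the peaks with the most reads, GGAG was in 44.5 ± 0.18% and 44.7 ± 1.76%, the highest of the 10 RBPs in either line.

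The level on each mRNA was then compared between lines with the other 9 RBPs as control, as the log2 of the LIN28B RPM minus that of the other 9 summed, centred on the median mRNA of each pool. Of the 3518 mRNAs tested, 20.3% were bound in all 5 libraries. None of the 3518 passed an adjusted p of 0.05 in limma (0% in either direction), and 371 (10.5%) had an unadjusted p under 0.05. Both HEK293 pools were above all K562 pools for 510 mRNAs (14.5%) and below all of them for 554 (15.7%). In simulated data, 75% of differences of 4-fold and 99.6% of those of 16-fold were called at a mean of at least 100 RPM, and 37.9% of those of 4-fold below it. The simulation assumed a fixed spread between libraries and kept the reads of the other 9 RBPs as observed. Fewer differences may be called in the real data, where the relative values of the HEK293 pools had a Pearson r of 0.528. The absence of calls therefore does not show that large differences are absent. The smallest p-values belonged to ARPC1B and SNAPC3, named here after their values were seen. ARPC1B, a subunit of the actin-nucleating Arp2/3 complex, had no LIN28B peak in HEK293 cells and 274, 448 and 505 RPM in K562 cells (difference -3.33 ± 0.45, limma adjusted p = 0.371). SNAPC3, of the complex that transcribes small nuclear RNAs, had none in HEK293 cells and 231, 82.3 and 182 in K562 cells, where the other 9 RBPs had 14.2 and 18.8 against 23.5, 25.7 and 25.9.

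Without the control for expression, the LIN28B level alone was higher in HEK293 cells for 134 mRNAs (3.81%) and higher in K562 cells for 226 (6.42%; limma adjusted p below 0.05). The limit on HEK293 reads given above applies to both counts. The other 9 RBPs were higher in the same line for 128 of the 134 (95.5%) and 217 of the 226 (96.0%), where 48.8% and 51.2% of all mRNAs tested had that direction. Across the 3518 mRNAs the differences of LIN28B and of the other 9 had a Pearson r of 0.725 and a Spearman rho of 0.678, a description over genes that share libraries. In pooled lysates, fewer cells with an mRNA and less of it per cell cannot be told apart.

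**Figure D4:**
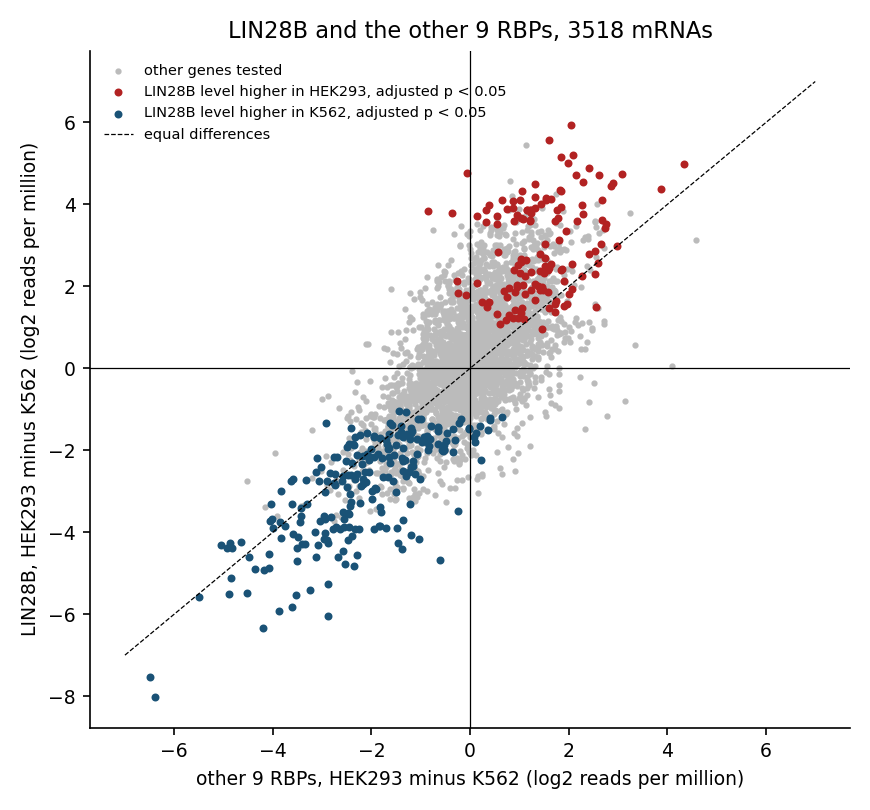
Difference between lines (HEK293 minus K562, log2 RPM) of LIN28B (vertical axis) against that of the other 9 RBPs summed (horizontal axis), 1 point per mRNA tested (n = 3518). The mRNAs called on the LIN28B level alone, 134 higher in HEK293 (red) and 226 higher in K562 (blue), lie mostly in the quadrants where the other 9 RBPs moved the same way.

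The mRNAs with the largest LIN28B differences, again named after their values were seen, were of this kind. PRAME, a tumour antigen gene, had no LIN28B peak in HEK293 cells and 1534, 1544 and 1681 RPM in K562 cells, at least 112-fold higher against a floor of 3 reads over the library. The other 9 RBPs went from 11.1 and 7.82 RPM in HEK293 cells to 773, 668 and 970 in K562 cells. PIM1, a kinase gene, had no LIN28B peak in HEK293 cells and 728, 1168 and 1656 RPM in K562 cells (at least 83.8-fold), with 13.3 and 10.8 against 916, 1140 and 1243 for the other 9. MPP1, an erythroid membrane protein gene, had none against 446, 437 and 613 (at least 35.3-fold). Each K562 library was far above both HEK293 libraries for these 3 mRNAs, in LIN28B and in the other 9.

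On the HEK293 side, 3 mRNAs are given for comparison. EIF4G3, a relative of EIF4G1, had 240 and 283 RPM in HEK293 cells and no LIN28B peak in K562 cells (at least 11.9-fold higher), where the other 9 RBPs still had 113, 92.8 and 152 against 263 and 474 (relative difference 3.83 ± 0.81, limma adjusted p = 0.377). RBM26, an RNA-binding protein gene, had 315 and 301 against 0, 15.4 and 0. For RCN2, a calcium-binding protein of the endoplasmic reticulum, 5265 and 371 RPM in HEK293 cells stood against 0, 46.3 and 41.4, and the HEK293 mean rested on the 1053 reads of replicate 1.

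**Figure D5:**
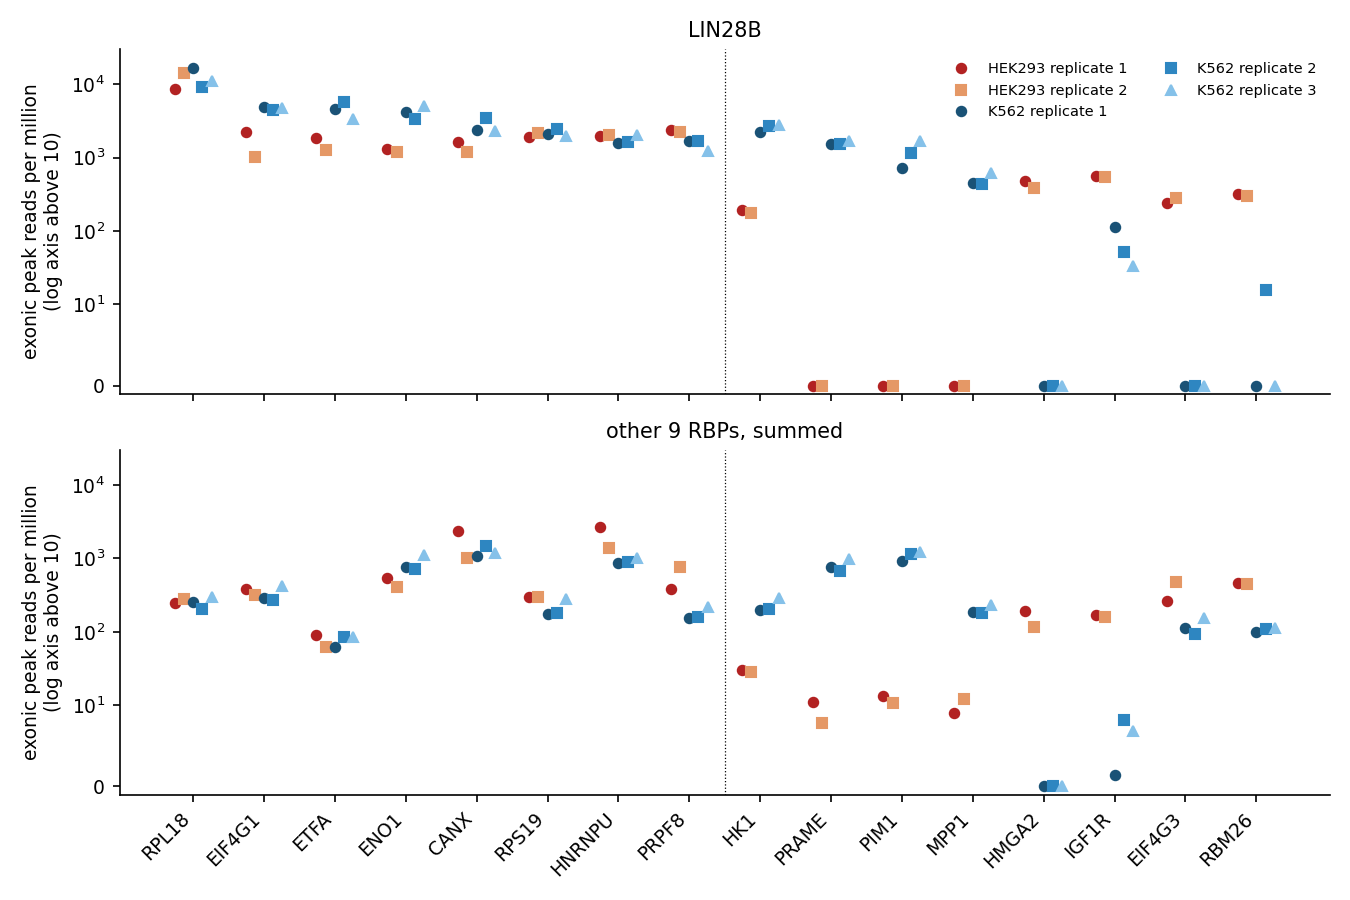
LIN28B level (top) and summed level of the other 9 RBPs (bottom) in exonic peak RPM (vertical axes, logarithmic above 10, with 0 marked) for 8 of the 10 mRNAs with the highest LIN28B level among those bound in all 5 libraries (left of the dotted line) and 8 mRNAs that differed between lines (right). The K562-side mRNAs PRAME, PIM1 and MPP1 are at 0 for LIN28B in both HEK293 libraries, where the other 9 RBPs are between 7.82 and 13.3.

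Among mRNAs of the let-7 axis, HMGA2, a chromatin protein gene and classical let-7 target, was bound in both HEK293 libraries, with 480 and 380 RPM and 96 and 86 reads. In K562 cells HMGA2 had no peak of LIN28B or of the other 9 RBPs, so that no relative value could be formed. IGF1R, a growth factor receptor gene, had 565 and 544 RPM in HEK293 cells and 111, 51.5 and 33.1 in K562 cells, with 168 and 159 against 1.36, 8.19 and 6.79 for the other 9. HMGA1 went the other way, with 310 and 119 against 960, 1178 and 1193, and the other 9 RBPs with it (203 against 1734). The oncogene MYC had 90.0 and 146 against 103, 118 and 108. IGF2BP1, an oncofetal RBP gene, had 900 and 615 against 557, 654 and 679 RPM, which overlapped. LIN28B's own mRNA was low, with 20 and 13.3 against 34.3, 46.3 and 74.5 RPM, of which the HEK293 values rest on 4 and 3 reads. Of 12 mRNAs of this list covered in both lines, 6 were bound in both HEK293 libraries and 6 in all K562 libraries, where 29.7% and 26.4% of all covered mRNAs were. Over the CC 1 and 2 were bound, beside 18.1% and 17.9% of all.

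Ribosomal protein mRNAs, which encode the subunits of the ribosome, were the largest list. Of 68 members covered in both lines, 20 were bound in both HEK293 libraries, 52 in all K562 libraries and 18 in all 5, where the shares of all covered mRNAs were 29.7%, 26.4% and 13.6%. Over the CC the counts were 23, 22 and 17, beside shares of 18.1%, 17.9% and 11.6% among all covered mRNAs. Relative to the other 9 RBPs, 0 of the 66 members tested passed the correction and 14 had an unadjusted p under 0.05, beside 10.5% of all mRNAs tested. Both HEK293 pools were above for 11 members and all K562 pools for 20, beside 14.5% and 15.7% of all, and the median difference was -0.24 (log2), beside 0.04 over all mRNAs tested. Many ribosomal protein genes have near-identical processed copies, and the authors dropped reads that align to more than 1 place, which leaves the level of such genes uncertain.

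Of 14 glycolysis mRNAs covered in both lines, 5 were bound in both HEK293 libraries and 10 in all K562 libraries, beside 29.7% and 26.4% of all covered mRNAs. Over the CC 5 and 9 were bound, beside 18.1% and 17.9%. Their LIN28B level alone was higher in K562 cells for 5 of the 14 tested, ENO1, HK1, PFKP, PGK1 and PKM, beside 6.42% of all mRNAs tested, and higher in HEK293 cells for 0. HK1, the hexokinase of red cells and most tissues, had 195 and 172 RPM against 2245, 2660 and 2791 (14.0-fold higher in K562 cells, limma adjusted p = 0.000406), and the other 9 RBPs were 7.87-fold higher. PKM and PFKP were higher in K562 cells for LIN28B (limma adjusted p = 0.0396 and 0.0476), while the other 9 RBPs had overlapping values, with means of 399 against 300 and of 152 against 123 RPM. The limit on HEK293 reads holds for these LIN28B levels too. The median relative difference of the list was -0.40, and 0 of 14 passed the correction (4 had an unadjusted p under 0.05 in limma, beside 10.5% of all).

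Of 28 splicing regulators, 13 were bound in HEK293 cells and 21 in K562 cells over the external background, beside 29.7% and 26.4% of all covered mRNAs. Over the CC 5 and 6 were bound, near the shares of all, 18.1% and 17.9%. HNRNPU had 1990 and 2012 RPM in HEK293 cells and 1568, 1636 and 2012 in K562 cells, which overlapped. Of 24 covered mRNAs of the endoplasmic reticulum and secretory pathway, 8 were bound in HEK293 cells and 16 in K562 cells, and 6 and 8 over the CC, to be read against the same shares. CANX, a lectin chaperone gene, had 1640 and 1185 against 2365, 3504 and 2277, whereas the median relative difference of the list was 0.32. HSPA5, the main chaperone of that compartment, had 180 and 128 against 831, 587 and 489 (limma adjusted p = 0.0185 for the level alone), and the other 9 RBPs had 143 against 810. The level alone was higher in HEK293 cells for 2 members of the list, RPN1 and TMED10. Relative to the other 9 RBPs, both HEK293 pools were above all K562 pools for 7 of 23 members tested. All K562 pools were above for 2, beside 14.5% and 15.7% of all mRNAs tested.

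Of 16 cell cycle mRNAs covered in both lines, 5 were bound in HEK293 cells and 7 in K562 cells, beside 29.7% and 26.4% of all covered mRNAs, and 6 and 4 over the CC, beside 18.1% and 17.9%. Of the 15 tested, CDK6 differed in LIN28B level alone, with 65.0 and 53.1 against 154, 226 and 232 RPM and the other 9 RBPs at 194 against 618. Of 16 mRNAs from reports of LIN28 targets, 6 were bound in HEK293 cells and 11 in K562 cells, and 8 and 6 over the CC, against the same shares of all. EEF1G, a translation elongation factor subunit on this list, had 2095 and 2109 against 1251, 1384 and 1010, with the other 9 RBPs at 159 against 115. The list as a whole leaned the other way. Relative to the other 9 RBPs, all K562 pools were above for 7 of 16 members and both HEK293 pools for 1, beside 15.7% and 14.5% of all. The median relative difference was -0.27, and the level alone was higher in K562 cells for 2 members, HMGA1 and PFKP. Of the 10 RBPs' own mRNAs, RBFOX2 was higher in HEK293 cells for LIN28B, with 345 and 252 against 34.3, 61.7 and 24.8 (limma adjusted p = 0.0174 for the level alone), and the other 9 RBPs were 5.85-fold higher there. None of these lists had a member that passed the correction relative to the other 9 RBPs; the counts at an unadjusted p under 0.05 in limma were 5 of 28 splicing regulators, 4 of 23 secretory, 1 of 15 cell cycle, 3 of 16 reported target, 0 of 12 let-7 axis and 2 of 9 own mRNAs, beside 10.5% of all mRNAs tested.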

How the data were processed

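LIN28B and the other 9 RBPs of the 10plex ABC pools were analysed (HEK293, 2 pools; K562, 3 pools), grouped by the titles; singleplex libraries were not used, and 0 columns of other series were present. The authors trimmed reads with cutadapt 2.8, aligned them to GRCh38 with STAR 2.7.6, removed PCR duplicates by molecular identifiers and reads with several alignments, and called peaks with CLIPper. They deposited a p-value per CLIPper peak. For each merged peak they deposited the −log10 of P, with 400 as its cap, and the log2 fold over an external background, by Yates' chi-squared or Fisher's exact test. The methods name RNA-seq data of each line as the background used beside the CC; the files do not name it. Against the CC they deposited the chi-squared value and the p-value of the test, or for K562 replicate 3 a −log10 P and a log2 fold. Nothing outside peaks was analysed.

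Reads per peak were recovered as the whole numbers that give the deposited log2 fold and P. Where the −log10 P was 0 or at its cap, P could not fix them, and the smallest numbers with whole CC reads were taken where possible. This held for 8.06% and 8.45% of LIN28B peaks in HEK293 cells and for at most 0.274% in K562 cells. Such reads can be too low, and the step with whole CC reads could accept too few where the chi-squared value was large. Recovered reads equalled those in the peak names for 96.9% to 99.6% of peaks, in K562 replicates 1 and 3 only. The HEK293 libraries list no such reads and could not be checked in this way. CC reads were solved from the statistic, and the 10 recovered shares of a pool summed to 99.9% to 100.002%. On simulated LIN28B peaks, reads were equal for 98.0% to 99.99%, CC reads for 94.6% to 94.7% and the direction for 95.6% to 95.7%. The simulation started from recovered reads and left out the step with whole CC reads. It therefore says little on peaks with a −log10 P of 0 or at its cap. Levels are exonic peak reads, in RPM (reads per 1000000 peak reads of the library). Regions came from GENCODE release 44 (release 35 in the study), and 94.3% to 94.7% of LIN28B peaks had the authors' region. LIN28B libraries held 116686 to 226177 peak reads and the other 9 of a pool 2213572 to 8827360; intervals were not computed, as peaks were selected.

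Per mRNA, log2 ratios with a prior of 1 read were fitted in limma 3.58.1 (R 4.3.3, trend, Benjamini-Hochberg over 3518 mRNAs with at least 30 reads of the other 9 per pool and a mean LIN28B level of at least 20 RPM); simulated data were tested first. Shares were compared by exact permutation of the 5 libraries. Python 3.11.15, bedtools 2.31.1 and pysam 0.24.0 were used. Named were all let-7 hairpins and hairpins bound in all libraries of a line, up to 8 members of each list by mean LIN28B level, the 10 largest differences per direction past the correction (none passed) and the 10 bound mRNAs with the highest level. A few results under this rule are not reported here. Members, lists and this rule were chosen with earlier results of these data known. Selections by reads, both backgrounds together, windows of 51 nt and further limma settings were added after seeing the data.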

Additional observations from a re-analysis of the deposited data

How the results depend on the processing

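Under the settings chosen at the start, 78 values kept their direction within the spread between replicates (counts, within 1.5 times), 28 moved and 2 reversed; under those added later the numbers were 5, 18 and 7. The cause was not tested. Over the CC, the mean number of enriched peaks in HEK293 cells was 4192.5, the difference in CDS (HEK293 minus K562, percentage points) was -2.04 and that in introns reversed to -3.28. The mRNAs bound in HEK293 but not all K562 libraries then numbered 709, those of the opposite kind 421, and the hairpins were 4 in all 5 libraries, 6 on the HEK293 side, of which MIRLET7B, MIRLET7I and MIR3620 lack a CC value in K562 replicate 3, and 0 on the K562 side. Of the 6 on the HEK293 side, MIR4721 has an uncertain call in HEK293 replicate 1. GGAG reversed to 0.077 and GGAGA was -0.29. With P below 1e-05 and a fold above 16, the mean numbers of enriched peaks were 5596 and 3873.3333, the CDS difference -31.18, the intron difference 24.97, and 337 mRNAs were bound in all 5 libraries and 777 on the HEK293 side. With the same number of top-ranked peaks, CDS was -28.83, introns 21.50, the HEK293 side 687 mRNAs and the site overlap between lines 30.5%. Regions at the peak centre gave -20.49 for CDS. Any merged peak gave 7 hairpins on the K562 side and hairpins extended by 25 nt gave 6.

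Chosen after seeing the data were peaks enriched over both backgrounds, which gave means of 2723 and 3013 peaks, -17.50 for CDS, 5.07 for introns, 10.80 for 3′ UTRs, 413 mRNAs in all 5 libraries, 529 on the HEK293 side and 499 on the K562 side. The same number of peaks with the most reads, also added later, reversed CDS to 1.0133 and introns to -0.82, and gave 657 and 484 mRNAs on the HEK293 and K562 sides and an overlap of 47.8%. All merged peaks reversed CDS to 1.86 and introns to -0.28, with 0.22 for 3′ UTRs. In windows of 51 nt, GGAG was -3.47, 0.20 (reversed) over the CC and -0.16 by reads, GGAGA was -1.61, -0.31 and 0.25 (reversed), and AAGNNG was -0.41, -0.35 and 2.69 (reversed).

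A prior of 5 reads gave 1 call in limma relative to the other 9 RBPs, and the LIN28B level alone gave 360. Leaving out 1 library moved the mRNAs on the HEK293 side between 1268 and 2532 (2331 without HEK293 replicate 1, 2532 without replicate 2) and those on the K562 side between 601 and 1048. Hairpins on the HEK293 side ranged from 16 to 43, the latter without HEK293 replicate 2, and on the K562 side from 2 to 5, with 5 without K562 replicate 1 or replicate 3. With 1 HEK293 library left, that library was assumed to vary like the others. No paired analysis was possible because the labels do not tie a HEK293 pool to a K562 pool. Depth limits calls on mRNAs with few LIN28B reads, of which 37.9% of simulated 4-fold differences were called, and reads outside peaks were not counted.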
